A study of Rattus norvegicus with 4 samples.

Results

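Of the 129550 peaks of trimethylated histone H3 lysine 27 (H3K27me3) in the rat sciatic nerve, 10711 had their centre in a long interspersed nuclear element (LINE), a share of 8.27% (95% Wilson interval 8.12 to 8.42%). A peak was taken as LINE-centred where the authors' detailed annotation of its centre gave the repeat class LINE. The same field gave the repeat name, such as Lx7, and the repeat family, such as L1. Intervals here treat peaks as independent and cover counting error only. The nerves came from male Sprague Dawley rats at postnatal day 42, on a side that received only a skin incision while the nerve of the opposite limb was cut, and they were collected 1 day later. Chromatin was cut with micrococcal nuclease and immunoprecipitated in 2 H3K27me3 libraries, with 2 input libraries of the same tissue. The deposited list pools the H3K27me3 libraries on the assembly rn5, so every value below is a single value without a replicate error. No group of the study can be compared with another from it, and a pooled nerve does not separate Schwann cells, fibroblasts, endothelial and immune cells.

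LINEs are retroelements without long terminal repeats, which copy themselves through an RNA intermediate with the reverse transcriptase that they encode. L1 is the lineage that stayed active in rodents, and its names run from mammalian-wide copies (the L1M names) through the old murine Lx copies to rodent L1 names such as L1_Rat4 and L1_Mur3. L2 and CR1 are older lineages, present in rodent genomes as fragments that no longer move. H3K27me3 is placed by Polycomb repressive complex PRC2, typically over CpG-rich promoters of silenced developmental genes, whereas L1 copies in somatic tissue are mostly held silent by DNA methylation and H3K9 methylation.

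Shown first are the promoters of 4 genes whose LINE-centred peak contained or came near the gene start. Other such genes are not shown, among them Rln1, for which no promoter sequence was matched. The pooled peak contained the transcription start site (TSS) of Cdkn2b, an inhibitor of cyclin D-dependent kinases, of Cnih3, an auxiliary subunit of AMPA-type glutamate receptors, and of Xcr1, a chemokine receptor of dendritic cells, and its edge lay 123.5 bp from that of Tmem266, a membrane protein with a voltage-sensor domain. The sequences are RefSeq promoters of the assembly GRCr8, from 250 bases before to 50 after the start, 5′ to 3′ on the strand of the gene, with each CG dinucleotide in capitals. They stand at chr5:109134806-109135105 on the minus strand, chr13:95631219-95631518 on the plus strand, chr8:132364607-132364906 on the minus strand and chr8:64602949-64603248 on the plus strand. The rn5 peaks were not placed on this assembly.
Cdkn2b: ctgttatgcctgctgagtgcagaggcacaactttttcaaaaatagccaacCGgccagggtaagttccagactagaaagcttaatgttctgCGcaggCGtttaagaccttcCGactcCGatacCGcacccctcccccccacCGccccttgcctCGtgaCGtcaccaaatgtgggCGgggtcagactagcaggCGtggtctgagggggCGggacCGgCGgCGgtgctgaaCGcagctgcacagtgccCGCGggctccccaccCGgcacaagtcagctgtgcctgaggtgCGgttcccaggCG
Cnih3: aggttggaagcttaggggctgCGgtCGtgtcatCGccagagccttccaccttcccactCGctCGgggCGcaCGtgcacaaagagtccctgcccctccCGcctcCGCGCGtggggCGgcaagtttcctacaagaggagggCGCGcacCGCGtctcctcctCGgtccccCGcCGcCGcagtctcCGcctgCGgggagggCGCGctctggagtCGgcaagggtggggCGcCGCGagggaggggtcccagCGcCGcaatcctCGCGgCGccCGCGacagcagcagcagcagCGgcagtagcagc
Xcr1: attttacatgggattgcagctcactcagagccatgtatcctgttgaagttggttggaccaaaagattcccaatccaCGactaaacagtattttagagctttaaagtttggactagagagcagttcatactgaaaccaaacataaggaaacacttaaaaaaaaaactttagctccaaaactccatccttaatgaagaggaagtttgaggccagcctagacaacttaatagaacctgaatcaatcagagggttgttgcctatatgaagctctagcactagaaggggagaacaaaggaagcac
Tmem266: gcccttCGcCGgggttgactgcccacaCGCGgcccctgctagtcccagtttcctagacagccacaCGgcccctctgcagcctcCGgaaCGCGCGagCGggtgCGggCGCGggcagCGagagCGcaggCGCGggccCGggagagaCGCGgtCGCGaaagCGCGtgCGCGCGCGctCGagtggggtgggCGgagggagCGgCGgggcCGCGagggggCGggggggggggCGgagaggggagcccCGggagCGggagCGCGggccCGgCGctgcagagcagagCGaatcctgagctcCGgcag
The Cdkn2b promoter held 21 CG dinucleotides, a number that 22.6% of the 33469 promoters of the table reached. Cnih3 had 36 and Tmem266 had 44, reached by 5.43% and 1.89% of promoters, respectively. Xcr1 had 1, and 94.5% of promoters had as many or more. The median over all promoters was 7, so these 4 promoters included both CG-rich sequences and a CG-poor sequence.

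The microRNA genes nearest to a LINE-centred peak are represented by the 3 with the highest-scoring such peak, Mir3550, Mir138-1 and Mir375. Their mature RNAs in RefSeq, 5′ to 3′ with the seed (bases 2 to 8) in capitals, follow.
rno-miR-3550: cCGAGCCCaucccugcccuag
rno-miR-138-5p: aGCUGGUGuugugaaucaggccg
rno-miR-138-1-3p: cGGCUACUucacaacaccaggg
rno-miR-375-3p: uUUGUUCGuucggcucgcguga
rno-miR-375-5p: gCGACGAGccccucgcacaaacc
No seed was shared among these 5 sequences. The peak at Mir3550 lay in an L3 element of the CR1 family within intron 10 of MAST1, a microtubule-associated kinase gene, with its centre 2999 bp from the start of the microRNA gene (chr19:37011996-37016335, width 4339 bp). Its score was 160.9. Scores here are those the authors gave each peak, and they serve only to describe and rank peaks within the list. At Mir375, whose microRNA is known from pancreatic islet cells, an Lx8-centred peak 9175 bp upstream scored 52.8. An L1MD2-centred peak 110070 bp upstream of Mir138-1, a source of the brain-rich miR-138, scored 61.7. Altogether 170 LINE-centred peaks were nearest to 62 microRNA genes, with a median score of 4.13 and a median distance of 64809.5 bp. The Mir3550 peak was the 1 among them that reached within 1000 bp of the annotated start of its nearest gene. That count is near what the 0.551% of all LINE-centred peaks with such a reach would give.

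Most members were L1. The family L1 had 9795 peaks (91.4%, 90.9 to 92.0%), L2 had 732 (6.83%), CR1 161 (1.50%), RTE-X 20 and Dong-R4 2, and 1 peak was annotated as L1 with a question mark. Within L1, the murine Lx names held 3891 peaks, or 39.7%. The rodent L1 names followed with 1570 (16.0%), L1M names outside the lettered series with 1141 (11.6%), L1ME with 756, L1MC with 690, L1MA with 666, L1MB with 618, L1MD with 332 and HAL1, an L1-like element without the reverse transcriptase gene, with 123. The remaining L1 names held 8. The share of the rat genome in each family is not known here, and no enrichment can be read from these counts.

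The peaks carried 138 repeat names, 58 of them on fewer than 20 peaks. The 15 most frequent names held 5311 peaks, or 49.6%. Lx7 had 650 peaks, Lx8 649, Lx9 580 and L1_Mur3 568. L1M2 had 330, Lx8b 283, Lx 281, Lx6 276, L2a 269, L1M4 268, L1M5 263, L1_Mur2 248, Lx5 218, Lx5c 217 and L2 211. The next name, L1_Rod, had 190.

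LINE-centred peaks had lower scores than the list as a whole. The median score was 4.13 (4.13 to 4.33, interval from order statistics) against 4.54 over all peaks and 4.33 for peaks centred in long terminal repeat (LTR) elements and in short interspersed elements (SINEs). Scores lay on a grid with a step of 0.206267, so these medians are 20 steps for LINE and 22 for all peaks. Of the LINE-centred peaks, 2129 were in the top 25% of scores (9.9 or more), a share of 19.9% (19.13 to 20.64%), where 25.1% of all peaks were, ties included. LTR-centred peaks stood at 20.2% and SINE-centred peaks at 21.2%.

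Widths were close to the list's. The median was 187 bp against 191 bp, and 49.1% of LINE-centred peaks had the smallest width of 150 bp against 45.2% of all peaks. At fixed widths, both medians were 3.30 among 150 bp peaks, and the LINE median was below that of all peaks between 300 and 600 bp (9.08 against 9.49) and between 1000 and 2000 bp (34.0 against 36.9). The plot of score against width shows the members on a single band.

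**Figure D1:**
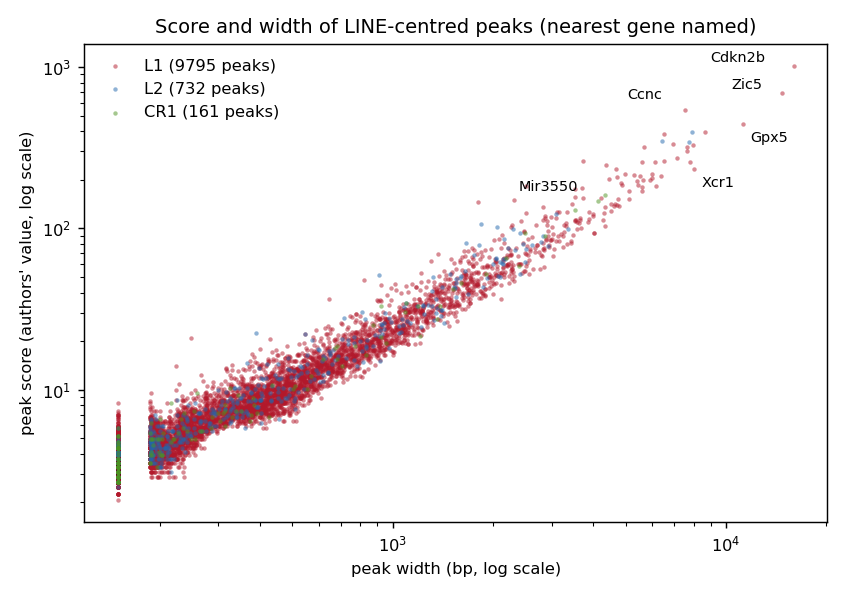
Score (authors' value, log scale) against width (bp, log scale) of the LINE-centred peaks of the L1, L2 and CR1 families, 1 point per peak, with the nearest gene named for selected peaks. Score rose with width over the whole range, the L2 and CR1 points lie within the band of L1, and the Cdkn2b peak is the farthest point with a score of 1019.2 and a width of 15960 bp.

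The LINE share was lower among stronger and wider peaks. Of the peaks scoring under 3, 10.6% were LINE-centred, of those scoring 10 to 20, 7.74%, of those scoring 50 to 100, 5.06%, and of those scoring 200 or more, 2.20% (32 of 1452). By width, the share was 8.98% at 150 bp, 7.47% between 600 and 1000 bp and 4.47% between 2000 and 5000 bp. Only 34 LINE-centred peaks reached 5000 bp, 0.317% of them, where 1.01% of all peaks did. Of the 336 peaks of at least 10000 bp, 3 were LINE-centred (0.893%), those at Cdkn2b, Zic5 and Gpx5. LTR and SINE shares were lower there too, at 2.69% and 3.79% of peaks scoring 200 or more. A wide peak has a centre that says little about the rest of the peak, since only the centre was annotated.

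**Figure D2:**
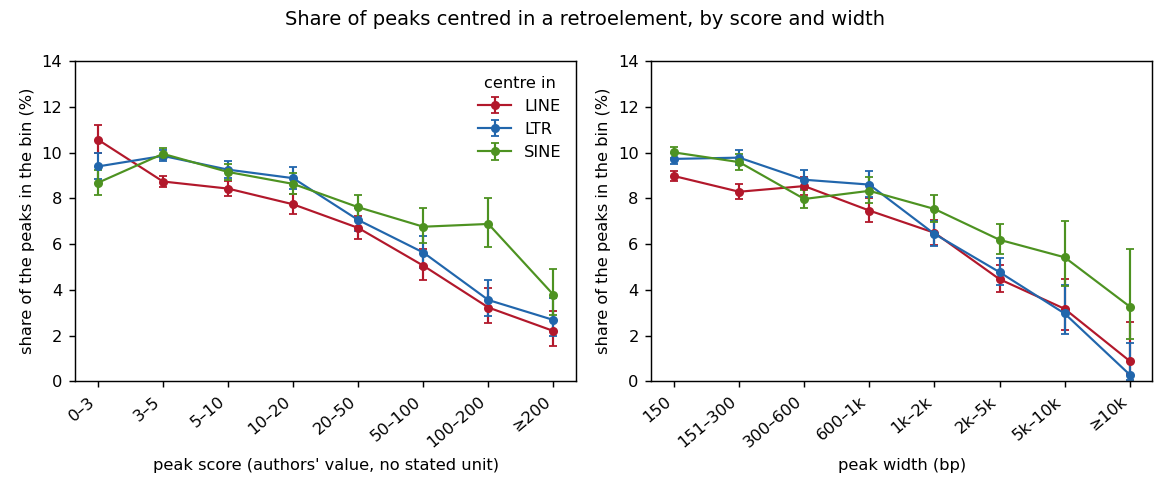
Share of peaks centred in LINE, LTR or SINE elements (percent of the peaks in the bin, bars are 95% Wilson intervals) by peak score (left, authors' value) and by peak width in bp (right). The LINE share goes from 10.6% of peaks scoring under 3 to 2.20% of peaks scoring 200 or more, and from 8.98% of 150 bp peaks to 0.893% of peaks of at least 10000 bp.

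The name groups did not score alike. In the top 25% of scores were 17.3% (16.1 to 18.5%) of Lx peaks and 18.5% (16.7 to 20.5%) of rodent L1 peaks, against 24.3% (21.9 to 26.8%) of the L1M names outside the lettered series. L1MA stood with the rodent names at 18.5% (15.7 to 21.6%), CR1 at 20.5%, L1MC at 20.7%, L1MB at 21.5%, L1MD at 22.9%, L1ME at 22.6%, L2 at 22.5%, HAL1 at 26.8% (19.8 to 35.3%) and the 20 RTE-X peaks at 35.0% (18.1 to 56.7%). Among names with at least 100 peaks, the lowest median scores were 3.71 for Lx, Lx2 and L1_Rat4, and 3.92 for L1_Rat3, Lx7, Lx8b and L1M3. L1_Rat4 had 8.09% (4.88 to 13.1%) of its 173 peaks in the top 25%. The highest medians were 5.26 for L1ME1, 5.16 for L2c, L1MD and L1MB7, and 4.95 for L3, and 33.3% (25.3 to 42.5%) of the 111 L2c peaks were in the top 25%. Of the 7 names at the low end, all but L1M3 were Lx or rodent L1 names, and none of the 5 at the high end was, with overlapping intervals for many neighbours in that order.

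**Figure D3:**
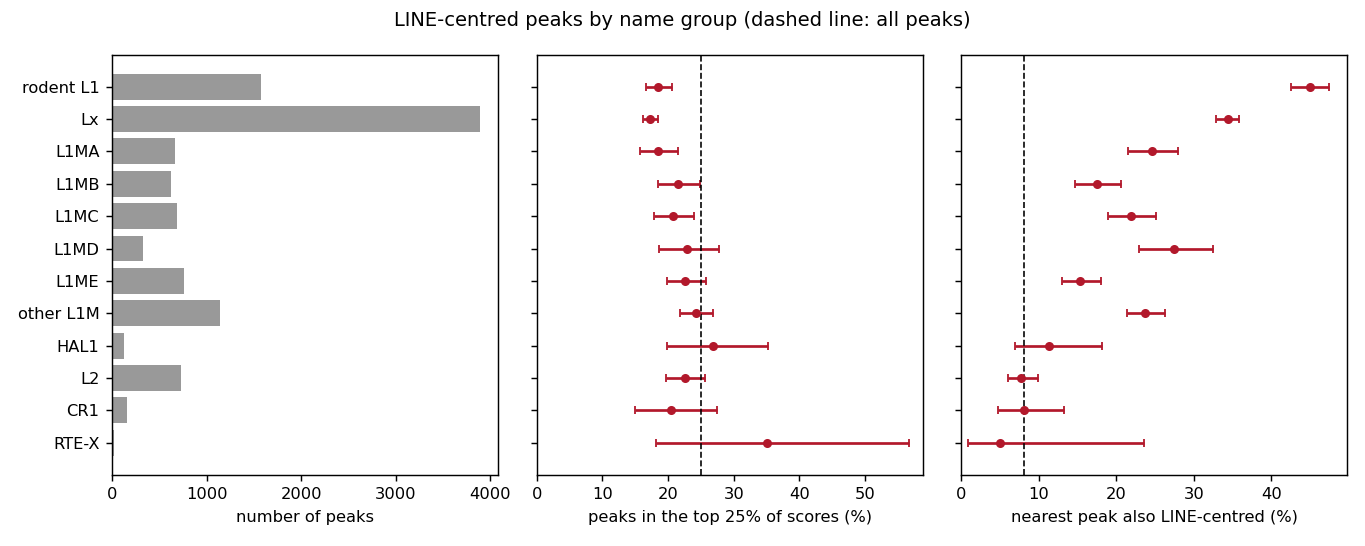
LINE-centred peaks by name group: number of peaks (left), percent of the group's peaks in the top 25% of all scores (middle) and percent whose nearest peak was also LINE-centred (right). Points carry 95% Wilson intervals and dashed lines give all peaks. Rodent L1 and Lx sit left of the dashed line in the middle panel, at 18.5% and 17.3%, and far right of it in the right panel, at 45.0% and 34.4%, where L2 lies at 7.79%.

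LINE-centred peaks seldom lay at gene starts. A promoter peak was a peak that reached within 1000 bp of its nearest TSS. This held for 59 LINE-centred peaks, 0.551% (0.427 to 0.710%), where it held for 4.81% of all peaks, 3.59% of intergenic and intronic peaks outside repeats and CpG islands, 1.66% of SINE-centred and 0.417% of LTR-centred peaks. L2 had 15 of the 59, which was 2.05% (1.25 to 3.35%) of L2 peaks, against 41 or 0.419% (0.309 to 0.567%) of L1 peaks, and CR1 had 3. All 40270 repeat-annotated peaks were intergenic or intronic by the authors' annotation, so a peak centred in their promoter-TSS or exon class could not be LINE-centred.

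The share of LINE-centred peaks was 0.357% (14 of 3920) among peaks centred under 1000 bp from a TSS, 5.25% between 1000 and 5000 bp, 9.51% between 20000 and 50000 bp and 6.76% at 500000 bp or more. The median distance was 39176 bp for LINE, 31736.5 bp for LTR, 26926 bp for SINE and 41049 bp for peaks outside repeats. By the median, LINE-centred peaks thus lay farther out than those of the other retroelement classes, and the interval of their median (37807 to 40685 bp) overlapped that of peaks outside repeats (40479 to 41589 bp).

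**Figure D4:**
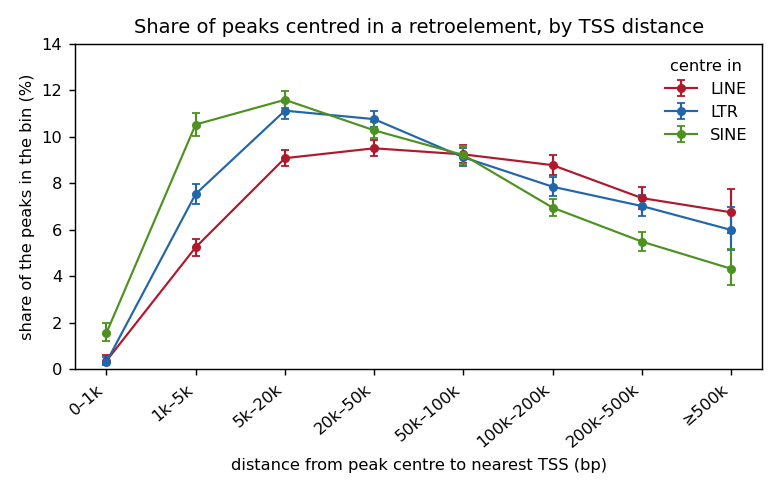
Share of peaks centred in LINE, LTR or SINE elements (percent of the peaks in the bin, bars are 95% Wilson intervals) by distance in bp from the peak's centre to the nearest TSS. SINE has the highest share up to 20000 bp, the 3 classes meet between 50000 and 100000 bp, and LINE is highest beyond 100000 bp, at 8.79% between 100000 and 200000 bp.

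The scores of the 59 promoter peaks ran from 2.68 to 1019.2 with a median of 48.5, their median width was 1648 bp, and 39 were in the top 25% of scores (66.1%). Of all 6226 promoter peaks of the list, 65.0% were in the top 25%, the median score was 23.9 and the median width 849 bp, so the LINE-centred share there was close to that of promoter peaks at large. A wide peak meets the reach more easily, and wide peaks score higher, so score and reach are not independent. The centre was upstream of the TSS in 33 and downstream in 26, and 14 were centred within 1000 bp of it. Each belonged to a different gene, and 4 contained the TSS, at Cdkn2b, Cnih3, Rln1 and Xcr1. A check of CG content over these genes is void and its group values are not given, because a promoter sequence was matched for only 44 of 59 (74.6%).

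The highest-scoring member was centred in an Lx2 element 7378 bp downstream of the Cdkn2b TSS (chr5:111811038-111826998) and covered 15960 bp. Its score was 1019.2, with a 95% counting interval of 991 to 1048 if 1 step of the score is 1 sequenced tag, and it ranked 125 in the whole list. The peaks within 5000 bp of each other around it formed a locus of 48 peaks over 95994 bp at Cdkn2a and Cdkn2b, neighbouring inhibitors of the cell cycle. Of these, 10 were LINE-centred and held 35.2% of the summed score. The other 9 scored between 3.09 and 31.4, and 7 of those lay in an intron and were nearest to Cdkn2a. The strongest peak of the locus outside LINE scored 735.8 over 9594 bp.

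Next in rank were an Lx5-centred peak 57670 bp from Zic5, a zinc finger gene of neural development, with a score of 693.1 over 14688 bp (chr15:112221871-112236559), and an Lx7-centred peak 26634 bp upstream of Ccnc, the cyclin of the Mediator kinase module, with 543.7 over 7550 bp (chr5:40491582-40499132). An Lx5-centred peak 45111 bp from Gpx5, an epididymal glutathione peroxidase, scored 441.2 over 11239 bp (chr17:57911390-57922629). These differed in their setting. The Zic5 peak lay in a locus of 34 peaks, of which the highest scored 1475.7 at Zic2, and LINE-centred peaks held 14.1% of that locus' score. At Gpx5 the locus had 4 peaks and the LINE-centred peak held 69.7% of the score.

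Ube2v2, a ubiquitin-conjugating enzyme variant, had 8 LINE-centred peaks among its 10 peaks (80.0%). They lay in 18499 bp upstream of the gene, in a locus of 9 peaks, in L1_Rat3, Lx5, Lx2A, Lx and L1_Mur1 elements. The 3 nearest to the gene scored 134.9, 53.0 and 257.6, the other 5 between 2.68 and 8.66, and LINE-centred peaks held 97.6% of the score of the locus. The peak of 257.6 was L1_Mur1-centred and reached to 977 bp from the TSS (chr11:92605031-92610619).

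Several of the other leading peaks lay in L1M and L2 elements. An L1MC-centred peak 60965 bp upstream of Mtmr9, a catalytically inactive myotubularin, scored 396.0 over 8639 bp. An L1M5-centred peak in intron 1 of Itgae, the integrin alpha E of intraepithelial T cells, scored 383.3. Of the 10 highest scores, 3 were in L2 elements, all of them promoter peaks. These 3 were also the only L2-centred peaks among the 32 LINE-centred peaks scoring 200 or more (9.375%, 3.24 to 24.2%). Over all LINE-centred peaks the L2 share was 6.83%. It was 4.35% (3 of 69) at scores of 100 to 200 and 14.2% (30 of 211) at 50 to 100. The L2 share thus did not rise steadily with score. The L2a-centred peak of Tmem266 lay in intron 1 and scored 395.6 over 7921 bp (chr8:58480694-58488615). An L2-centred peak upstream of Sptb, erythroid beta spectrin, scored 346.9 and ended 230 bp from the TSS. An L2c-centred peak upstream of Chrna5, a nicotinic receptor subunit, scored 345.5 and ended 176 bp from it.

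Of the other promoter peaks, the Lx8-centred peak over the Cnih3 TSS scored 335.8 over 6930 bp (chr13:104650011-104656941), and the L1M2-centred peak over the TSS of Rln1, a relaxin gene, scored 320.1 over 7651 bp. The L1MEb-centred peak in intron 1 of Xcr1 scored 232.7 over 8041 bp (chr8:132063919-132071960). Cdkn2b and Xcr1 thus carried wide LINE-centred peaks over starts with 21 and 1 CG dinucleotides in the windows printed above. Asb13, an adaptor of ubiquitin ligases, had an L1M4-centred peak of 259.5, and Celf6, an RNA-binding protein gene, an L1MCa-centred peak of 212.3.

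The best peak of each remaining name group was lower. The rodent L1 maximum was 328.0, in L1_Mur3 upstream of the mast cell tryptase gene Tpsb2. It was 320.8 for L1ME, 57142 bp from Top1, a DNA topoisomerase gene, and 300.9 for L1MA, 37488 bp from Prr9. L1MB reached 248.8, 52090 bp from Mto1, a gene of mitochondrial tRNA modification, and HAL1 183.8, 21443 bp from the homeobox gene Nkx2-3. L1MD reached 113.0 in intron 9 of Slc5a10, 27988 bp from the nearest start, that of Grap, and RTE-X 98.8, 3881 bp from Pou2f1, a POU-domain transcription factor gene. Among the widest peaks was an L1ME2z-centred peak of 7783 bp in intron 2 of Skap1, a T cell adaptor gene, with a score of 259.7. The 2 Dong-R4 peaks, both in Mam_R4, scored 62.3 and 15.9. The first lay 8076 bp upstream of the ETS factor gene Etv3 and the other in intron 2 of C7h12orf75, 89260 bp from the nearest start, that of Fhl4.

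LINE-centred peaks were dispersed over many genes. Of the 10647 genes named by any peak, 4356 (40.9%) were nearest to at least 1 LINE-centred peak, 2032 of them to 1 and 72 to 10 or more. The cell adhesion gene Cadm1 had most, 26 of its 233 peaks, between 40774 and 519540 bp from its TSS and with scores up to 50.1. Tmem45b followed with 25 of 107 (23.4%) and a highest score of 16.7, the stress kinase gene Mapkapk3 with 22 of 91 and 60.4, and the transcription factor gene Ets1 with 22 of 202 and 36.9. Hs3st3b1, a heparan sulfate sulfotransferase gene, had 21 of 126, Gad2, which makes the transmitter GABA, 19 of 100, and Sox6 19 of 237. The olfactory receptor gene Olr1768 and Dad1, a gene of protein glycosylation, had 18 each. Genes with the most members were therefore not those with the strongest: by summed score the order began with Cdkn2b at 1048.06, Zic5 at 699.70, Ccnc at 642.29, Mtmr9 at 592.74 and Ube2v2 at 467.98.

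In windows of 1 Mb, 1893 of the 2436 windows with a peak held a LINE-centred peak (77.7%), and 334 windows held at least 10. Those 334 contained 44.1% of LINE-centred peaks and 31.7% of all peaks. The window with most, on chromosome 3 at 127 Mb, had 37 of 233 peaks (15.9%), 12 of them nearest to the transglutaminase gene Tgm3 and 7 to the opioid precursor gene Pdyn. On chromosome 8, the windows at 32, 115 and 50 Mb had 31 of 153, 28 of 193 and 27 of 226, and they held the peaks of Tmem45b, Mapkapk3 and Cadm1. The window on chromosome 3 at 166 Mb had 27 of 170, spread over 11 genes, with 11 nearest to Rims4. Median scores of the LINE-centred peaks in these 5 windows were between 3.92 and 5.16.

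Neighbouring members were often of the same kind. The peak nearest to a LINE-centred peak was itself LINE-centred in 3032 cases, 28.3% (27.5 to 29.2%), against 8.15% over all peaks and 5.99% for peaks outside repeats. It had the same repeat name in 1995 cases (18.6%). The share was 45.0% (42.6 to 47.5%) for rodent L1, 34.4% (32.9 to 35.9%) for Lx, 15.3% (13.0 to 18.1%) for L1ME and 7.79% (6.06 to 9.96%) for L2. Among frequent names it was 52.2% for Lx6, 47.5% for L1_Mur3, 40.9% for Lx7 and 11.03% for L1M5. Peaks that share a LINE copy are not separate insertions, and copies were not told apart here. The lengths of the annotated elements were not used, and their part in these shares was not tested.

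Runs of consecutive LINE-centred peaks show this on the ground. There were 435 runs of at least 3, holding 1551 peaks (14.5%), and 64 of at least 5. The 2 longest had 8 peaks each. At chr18:61267397-61272147 upstream of Pmaip1, a gene of the apoptosis pathway, 8 peaks in a row were Lx7-centred within 4750 bp and scored 3.30, 4.95, 4.33, 3.09, 3.09, 4.33, 2.89 and 3.51. At chr1:170927646-170943932, between the olfactory receptor genes Olr36 and Olr37, 8 peaks in Lx8, L1M2, L1MD2, Lx and L1_Rat4 elements scored between 2.89 and 10.1, with a median of 4.745 that was above the LINE median. A run of 7 at chr10:49369245-49380540, 52342 to 63465 bp from Pmp22, a peripheral myelin gene, had 5 peaks in L1_Rod and scored 3.30 to 9.90.

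In or within 10 kb of a peak of at least 5 kb were 569 of them, 5.31% (4.90 to 5.75%), where 7.59% of all peaks, 5.86% of LTR-centred and 9.42% of SINE-centred peaks were. The shares of LINE and LTR were thus close, and both were below that of all peaks. A neighbouring peak lay within 10 kb of 92.7% of LINE-centred peaks and 93.3% of all peaks, with median gaps of 666 and 605 bp, and 1399 members (13.1%) were alone in their locus against 11.6% of all peaks.

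On the X chromosome, 141 of 1285 peaks were LINE-centred (10.97%, 9.38 to 12.8%), against 8.24% on the autosomes. SINE-centred peaks were also a larger part of the X, 11.2% against 9.15% of all peaks. LTR-centred peaks were a smaller part, 6.69% against 9.06%. The autosomes ranged from 5.13% (4.45 to 5.92%) on chromosome 12, 6.57% on 20 and 7.09% on 10 to 9.39% on 4 and 9.53% (8.74 to 10.4%) on 17. The interval of X overlapped those of chromosomes 17, 4, 15, 16, 6, 8, 11 and 18. Lx and rodent L1 names made up 63.8% of the LINE-centred peaks on X, 50.8% of those on the autosomes and 38.1% on chromosome 10. The X held 1.32% (1.12 to 1.55%) of LINE-centred, 1.21% of SINE-centred, 0.733% of LTR-centred and 0.992% of all peaks. Among peaks in the top 25% of scores the X held 1.08% (0.721 to 1.62%) of LINE-centred and 1.12% of all peaks, which could not be told apart at these counts. The highest member on X was Lx4B-centred, scored 207.3 and ended 615 bp from the TSS of Apoo, a gene of mitochondrial cristae.

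**Figure D5:**
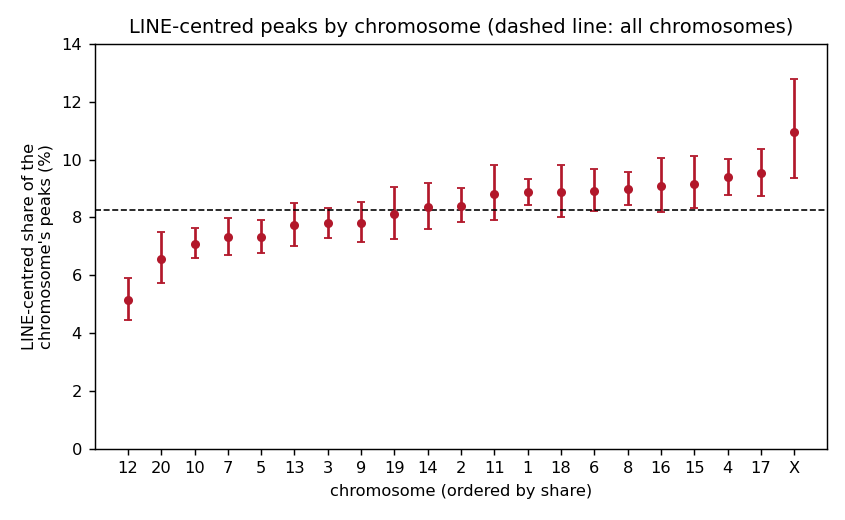
LINE-centred share of the peaks of each chromosome (percent, bars are 95% Wilson intervals), ordered by share, with the share over all chromosomes as a dashed line. Chromosome 12 is lowest at 5.13% and X highest at 10.97%, with an interval that overlaps those of several autosomes, chromosome 17 among them.

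By the position of their centre, 9092 members were intergenic and 1619 intronic. The intronic share of 15.1% (14.4 to 15.8%) was below that of all peaks, 21.8%, and above that of LTR-centred peaks, 12.8%. It was 26.2% (23.2 to 29.5%) for L2, 12.6% for Lx and 9.30% (7.96 to 10.8%) for rodent L1. Intronic and intergenic members had the same median score of 4.13. Intron 1 held 595 of the 1619 (36.8%, 34.4 to 39.1%), close to the 38.7% of other intronic peaks. The 1522 members whose host transcript was matched to a gene (94.0%) fell in 763 genes. The hosts named next were chosen after their counts were seen. The potassium channel gene Kcnj5 had 28 with scores from 2.48 to 43.3, spread over chr8:32755682-33504909 in the authors' annotation, a span so long that the placement of this transcript is in doubt. The nearest start was that of Kcnj5 itself for 3 of these, of Tmem45b for 14 and of LOC100362981 for 11. Asic2, an acid-sensing channel gene, had 19, the postsynaptic scaffold gene Dlg2 had 15, and Ppp1r7, the acetylcholine synthesis gene Chat and Cdkn2a had 14 each.

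Gene groups differed in how many of their peaks were LINE-centred, against 8.27% over the list. Of all genes named by a peak, 40.9% were nearest to at least 1 LINE-centred peak. Chemosensory receptor genes had 255 of 1537 peaks (16.6%, 14.8 to 18.5%), at 115 of 258 genes. Of these 255 peaks, 76.1% were in Lx or rodent L1 names, against 50.8% of the LINE-centred peaks on the autosomes. A LINE-centred promoter peak stood at 1 of these genes, a count near what the 0.551% of all LINE-centred peaks would give. A promoter peak of any kind was present at 61 of the 258 genes. Homeobox and other developmental regulator genes, the classic targets of Polycomb, had 348 of 5250 (6.63%, 5.99 to 7.33%) at 94 of 154 genes. Of these 348 peaks, 82 were in the top 25% of scores (23.6%), where 19.9% of all LINE-centred peaks were. The highest of the 348 were at Zic5 with 693.1, Nkx2-3 with 183.8, Nkx6-3 with 112.0 and Emx2 with 111.6. None of the 348 was a promoter peak, a count near what the 0.551% of all LINE-centred peaks would give. A promoter peak centred elsewhere was present at 130 of the 154 genes, and 38.4% of all genes named in the list had a promoter peak.

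Cadherin and protocadherin genes had 31 of 443 (7.00%, 4.97 to 9.76%), led by Cdh26 with 51.6, Cdh23 with 39.2, Cdh22 with 33.2 and Cdh2 with 22.5. Neuronal adhesion and axon genes in long loci had 18 of 588 (3.06%, 1.94 to 4.79%), with a median distance of 262803 bp from the TSS. None of these 18 was in the top 25% of scores, where 19.9% of all LINE-centred peaks were. The highest scored 7.22, nearest to Lsamp at 263026 bp and to the axon guidance receptor gene Robo1 at 786449 bp. Next were 5.36 for a peak nearest to Epha3 and 4.95 for a peak nearest to Opcml.

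A list of PRC2 and PRC1 genes that also included the H3K27 demethylase genes Kdm6a and Kdm6b had 14 of 209 (6.70%, 4.03 to 10.9%). Of the 14, 8 were in the top 25% of scores, where 19.9% of all LINE-centred peaks were. The 14 peaks came from 6 of the 18 listed genes that any peak named, with 4 each at Pcgf5 and Ezh2 and 3 at Phc2. An Lx9-centred peak 7720 bp upstream of Pcgf5, a PRC1 subunit gene, scored 54.7, and an Lx2-centred peak 50969 bp upstream of Ezh2, the methyltransferase that places this mark, scored 53.4. Phc2 reached 20.4 and Aebp2 10.9. Genes that restrain retroelements had 11 of 101 (10.9%, 6.19 to 18.5%). These 11 came from 6 of the 15 genes that any peak named, out of 32 listed. Their median score was 3.30, against 4.13 for all LINE-centred peaks, and 1 of the 11 was in the top 25% of scores. Among their scores was 12.8 for a peak 88364 bp from the TSS of Morc2, a partner of the HUSH silencing complex. Peaks nearest to the DNA methyltransferase gene Dnmt3a, at 31123 bp, and to Piwil4, at 119058 bp, scored 4.13.

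Of 8 Schwann cell markers, 4 had a promoter peak, Sox10 among them, and so had 7 of 7 neuronal, 2 of 3 muscle and 1 of 3 leukocyte markers. The list holds no expression values, so the tissue label could not be checked further.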

How the data were processed

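H3K27me3 was measured by chromatin immunoprecipitation after micrococcal nuclease digestion in 2 libraries, with 2 inputs. The submitters' processing notes name CASAVA 1.8.2, Bowtie and HOMER. Per the file headers, the authors annotated a combined peak list with HOMER on rn5. The peak calling settings, the use of input, the treatment of reads that map to many places, which bears directly on repeats, and the way libraries were combined are each not stated (not given in the sources used here). Each peak has a score deposited by the authors, without a scale. Widths, coordinates and TSS distances were deposited in bp. The depth per library is unknown.

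Members were read from the detailed annotation with Python 3.11.15, pandas 2.3.3 and scipy 1.17.1. The annotation could not be repeated, since no rn5 genome or repeat table was used here. Shares have 95% Wilson intervals and medians have order-statistic intervals. For the 97601 peaks scoring under 10, 100% of scores were within 0.0055 of a multiple of the step. The step was chosen on these same scores by that tolerance, so the 100% is no separate check of it. Counting intervals of single scores treat a step as 1 tag, which was not tested. A locus joined peaks within 5000 bp. No test was run, because the list has no value per library, and scripts were checked on simulated data. Named items were, by rule, the 15 most frequent repeat names, the 5 highest and 5 lowest by median score among names with at least 100 peaks (ties included), the 10 highest, 10 widest and 10 highest promoter peaks, the best peak per family and L1 name group, the 10 genes with most members and the highest of the 10 with most summed score, 5 windows, and up to 4 members of each gene list. MicroRNA genes, loci, runs and intron hosts were chosen after their values were seen. The members, lists and rule were chosen with earlier results of these data known. Some genes that the rule takes are not reported here. GRCr8 tables gave names and sequences only.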

Additional observations from a re-analysis of the deposited data

How the results depend on the processing

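10 results were recomputed under 55 alternatives, of which 20 moved the value by less than its counting interval and 35 by more. No paired analysis was possible because the deposited list pools the H3K27me3 libraries and has no value per library, and for the same reason no replicate could be left out. The cause of each move was not tested. Taking only peaks at or above the median score, only the top 25% or only peaks wider than the smallest width gave, in that order, a LINE share of 7.51, 6.55 and 7.68%, an L1 share of LINE-centred peaks of 90.8, 90.3 and 90.9%, an Lx share of L1 peaks of 37.3, 35.0 and 37.7%, a median TSS distance of 32715, 26054 and 33579 bp, a promoter peak share of 0.971, 1.83 and 0.917% (all peaks 7.60, 12.5 and 7.17%), and a share near a domain of at least 5 kb of 7.73, 11.6 and 7.37% (all peaks 11.05, 15.6 and 10.4%). Over all peaks the median TSS distances were, in the same order, 28513, 22936 and 29832.5 bp. The X share in the top 25% was 1.08% (all peaks 1.12%). At or above the median score the median width was 390 bp (all peaks 420 bp). Without the smallest width the median score was 7.84 (all peaks 8.87) and the share in the top 25% of scores 39.0% (all peaks 45.8%). With 1 peak per locus the Lx share was 37.1% and the X share 1.77% (all peaks 1.21%). In that setting the median distance was 52653.5 bp (all peaks 47721.5 bp) and the promoter share 1.08% (all peaks 7.93%). The share near a domain was 1.31% (all peaks 2.99%) and the median score 4.54 (all peaks 5.36). The top 25% share was 25.9% (all peaks 35.3%) and the median width 195 bp (all peaks 230 bp). Promoter peaks that must contain the TSS were 0.0373% (all peaks 1.15%), with a reach of 5000 bp 7.59% (all peaks 14.8%), and 0 had the authors' promoter-TSS annotation. Near a domain of at least 10 kb were 1.38% (all peaks 2.23%), and within 50 kb of a domain of at least 5 kb 15.4% (all peaks 17.8%). The LINE value stayed below that of all peaks for promoter and domain shares in each of these. An unknown share of reads may map to more than 1 LINE copy, and neither their handling nor the genome share of LINEs was analysed here.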
